A study of Mus musculus with 13 samples.

Results

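Regulatory T (Treg) cells and CD8 T cells from the same kind of tumor were compared gene by gene by RNA sequencing, in mice whose Treg cells had been left in place. The comparison rested on 5 of the 13 libraries of the series, chosen by their labels: 3 of tumor Treg cells and 2 of tumor CD8 T cells, all from mice given saline (PBS). Treg cells are CD4+ T cells that depend on the transcription factor Foxp3, bind IL-2 through the high-affinity receptor chain CD25, and restrain other lymphocytes through surface receptors such as CTLA-4 and through cytokines such as IL-10 and TGF-beta. CD8 T cells recognize peptides on MHC class I and kill their targets with perforin and granzymes, and many carry killer lectin-like receptors that they share with natural killer (NK) cells. Which genes separate the populations inside a melanoma before Treg cells are removed is what the comparison asks.

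All groups came from Foxp3-EGFP-DTR mice bearing subcutaneous tumors of the mouse melanoma line B16-F10. In this genotype the Foxp3 gene itself also drives a green fluorescent protein (EGFP) together with the human receptor for diphtheria toxin (DTx). DTx therefore kills Treg cells, and PBS leaves them in place. The study's methods describe the mice as adults of both sexes. The groups were Treg PBS (n = 3, replicates 1, 2 and 3), CD8 PBS (n = 2, replicates 2 and 3), conventional CD4 T (CD4 Tconv) cells after PBS (CD4 PBS, n = 2), and CD4 and CD8 Tconv cells after DTx (n = 3 each). The DTx groups entered only the filter that chose the tested genes and the shared estimate of the spread, and CD4 PBS is given beside some genes. Treg cells were sorted on the EGFP reporter, so a Treg cell without it would have been missed. The labels name an enrichment of CD4+ T cells before the sort for every sample, CD8 samples included. The study's methods call the replicates biological and isolated on independent days, and the p-values below measure the spread between these samples.

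The labels were checked against lineage transcripts. Foxp3 was at 1178, 1856 and 1896 normalized reads in Treg PBS replicates 1, 2 and 3, and at 9.72 and 0 in CD8 PBS replicates 2 and 3 (log2 fold change 8.94, SE 1.08, limma, adjusted p = 1.93e-04). Cd4 was at 15678, 10595 and 16064 in Treg PBS and at 2.43 and 0 in CD8 PBS, a difference of at least 3529-fold (limma, adjusted p = 3.26e-04). Cd8a and Cd8b1, the chains of the CD8 co-receptor, were in the opposite position. Cd8a was at 41.5, 105 and 180.1 against 23475 and 27907 (log2 fold change -8.10, SE 0.84, limma, adjusted p = 7.43e-05), and Cd8b1 was at 922, 752 and 606 against 40376 and 48228 (log2 fold change -5.88, SE 0.68, limma, adjusted p = 1.50e-04). The libraries of the groups did not overlap for any of these genes, which also held for 58.0% of all tested genes. Of 8 genes of the CD4 lineage, Cd4 included, 3 were higher in Treg cells and 1 was lower. Of 8 genes of the CD8 lineage, Cd8a and Cd8b1 included, 4 were lower and none higher. By the same rule, given below, 6.56% of all tested genes were higher and 2.85% lower. All values below follow the same order of replicates and are normalized reads, that is, reads of a gene divided by 1 size factor for its library. Levels of different genes are not compared, because the values are not divided by gene length. Since these are bulk samples, fewer cells of a type and less RNA per cell cannot be told apart.

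The 5 libraries held between 16920875 and 29242251 recovered reads and between 11769 and 12171 genes above 0, and the floor of 3 recovered reads corresponded to between 2.54 and 4.0 normalized reads. Within a group, pairs of libraries correlated across tested genes at r = 0.913 to 0.937 in Treg PBS and at r = 0.941 in CD8 PBS, against 0.764 to 0.820 between groups, as a description across genes. Several lists set the libraries of a group apart. Replicate 3 of each group was from male mice and the other replicates from female mice by Xist, at 2139, 5798 and 0 in Treg PBS, and the Y-linked Ddx3y, at 0, 0 and 3406, so replicate 3 and male sex cannot be told apart. Of 23 immediate early genes, which cells switch on within minutes of handling or stimulation, 21 were higher in CD8 PBS replicate 3 than in replicate 2. Their summed level was 41909, 53069 and 219779 in Treg PBS and 59227 and 276404 in CD8 PBS. The CD8 PBS libraries also differed in NK cell markers, which summed to 7343 and 2205, against 303, 199 and 189.5 in Treg PBS, and in gamma delta T cell markers, which summed to 4103 and 1114, against 42.3, 65 and 48.3. All 8 NK cell markers and all 6 gamma delta markers were higher in CD8 PBS replicate 2. The part of these differences in the results was not tested. For many genes, but not all, a call that was lost without 1 CD8 PBS library is named beside the gene. The study's methods name a gate on TCR beta for other sorts, while the gate behind these libraries is not spelled out.

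Treg cells and CD8 T cells differed at 1192 of 12667 tested genes (9.41%), and 831 of these were higher in Treg cells (6.56% of tested genes) while 361 were lower (2.85%). The counts given for each gene list below are to be read beside these shares. A gene was called where its limma adjusted p was under 0.05 and its level differed by more than 4-fold, which is 2 on the log2 scale, and fold changes were taken on log2(normalized reads + 1), which understates those of low genes. The differences were large. Among called genes the median difference was 4.08 on the log2 scale for those higher in Treg cells and 3.80 for those lower, 428 and 170 genes differed by more than 16-fold, and 146 and 56 by more than 64-fold. The median log2 fold change over all tested genes was 0.02. The CD8 PBS libraries were at or under the floor for 251 of the genes higher in Treg cells, and the Treg PBS libraries for 70 of the genes lower. Of all tested genes 58.0% did not overlap between the groups, and among called genes 1191 did not overlap and 1 did. Without CD8 PBS replicate 3, the count of called genes fell to 544 (367 higher and 177 lower), and 522 of the original calls were kept. Without CD8 PBS replicate 2 it was 938 (735 higher and 203 lower).

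**Figure D1:**
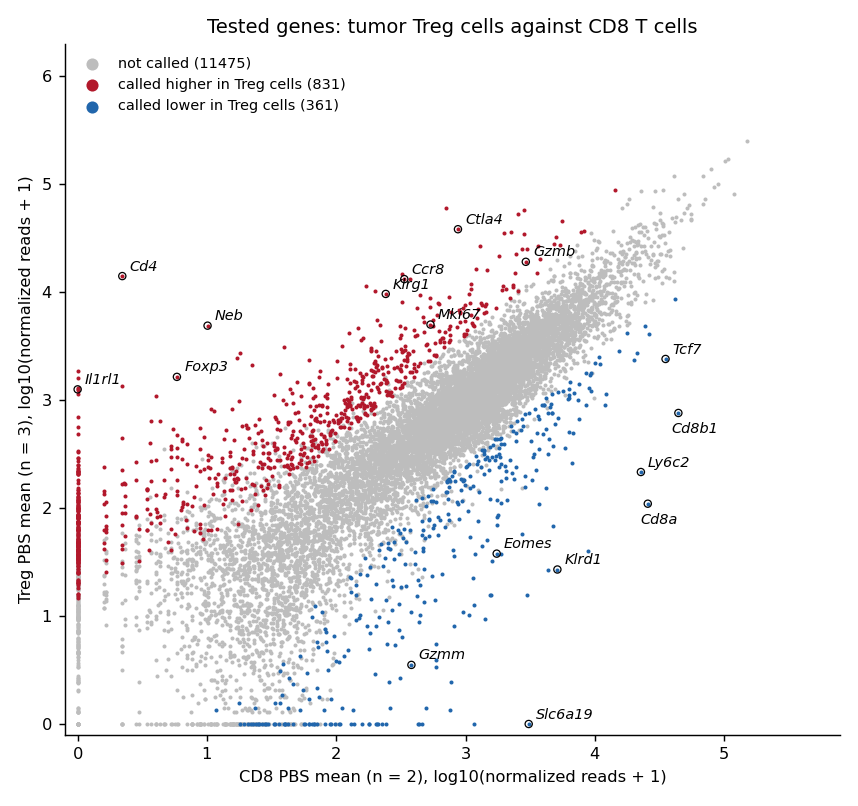
Mean level of each tested gene in CD8 PBS (n = 2, horizontal axis) and Treg PBS (n = 3, vertical axis), both as log10(normalized reads + 1), with the 831 genes higher and the 361 genes lower in Treg cells colored. Called genes lie away from the diagonal, and a column of them at the left edge has no reads in CD8 PBS.

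The genes furthest above CD8 PBS in Treg cells held a protease, cytokine and chemokine receptors, and giant muscle proteins. Mmp9, a gelatinase that degrades extracellular matrix, was at 2279, 1303 and 2007 in Treg PBS and at 0 in both CD8 libraries, at least 466-fold higher (limma, adjusted p = 2.62e-07). Il1rl1, which encodes the IL-33 receptor ST2, was at 1138, 1470.0 and 1168 against 0 in both CD8 libraries, at least 315-fold higher (limma, adjusted p = 2.62e-07). Ttn and Neb encode titin and nebulin, sarcomere proteins best known from striated muscle. Ttn was at 1623, 1513 and 1654 against 0 in both CD8 libraries, at least 399-fold higher (limma, adjusted p = 1.76e-05), and Neb at 4876, 4602 and 5227 against 18.2 and 0 (log2 fold change 10.13, SE 1.91, limma, adjusted p = 0.00344). In CD4 PBS, Ttn was at 0 in both CD4 libraries and Neb at 0 and 31. Itgb8, the integrin chain that pairs with the alpha v chain to release active TGF-beta, was at 1261, 997 and 1464 against 0 in both CD8 libraries, at least 310.2-fold higher (limma, adjusted p = 0.00199). Il10, the anti-inflammatory cytokine, was at 1081, 783 and 2214 against 2.43 and 0, at least 340.0-fold higher (limma, adjusted p = 0.00356). These genes were chosen among those whose groups did not overlap.

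The other genes of this group were a transporter, cytoskeletal genes and a chemokine receptor. Slc15a3, a peptide and histidine transporter of lysosomes, was at 1452, 789 and 1608 against 0 in both CD8 libraries (at least 321-fold, limma, adjusted p = 6.30e-06). Vill, related to the actin-binding protein villin, was at 1341, 1119 and 952 against 0 in both CD8 libraries (at least 284-fold, limma, adjusted p = 3.06e-06), and Map6, which stabilizes microtubules, at 656, 577 and 849 against 0 in both CD8 libraries (at least 174-fold, limma, adjusted p = 1.62e-06). Ccr3, a receptor for eotaxins, was at 391, 705 and 586 against 0 in both CD8 libraries (at least 140.3-fold, limma, adjusted p = 4.43e-05). All of them were at 0 in CD8 PBS. Neb and Il10 were not called without CD8 PBS replicate 3.

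**Figure D2:**
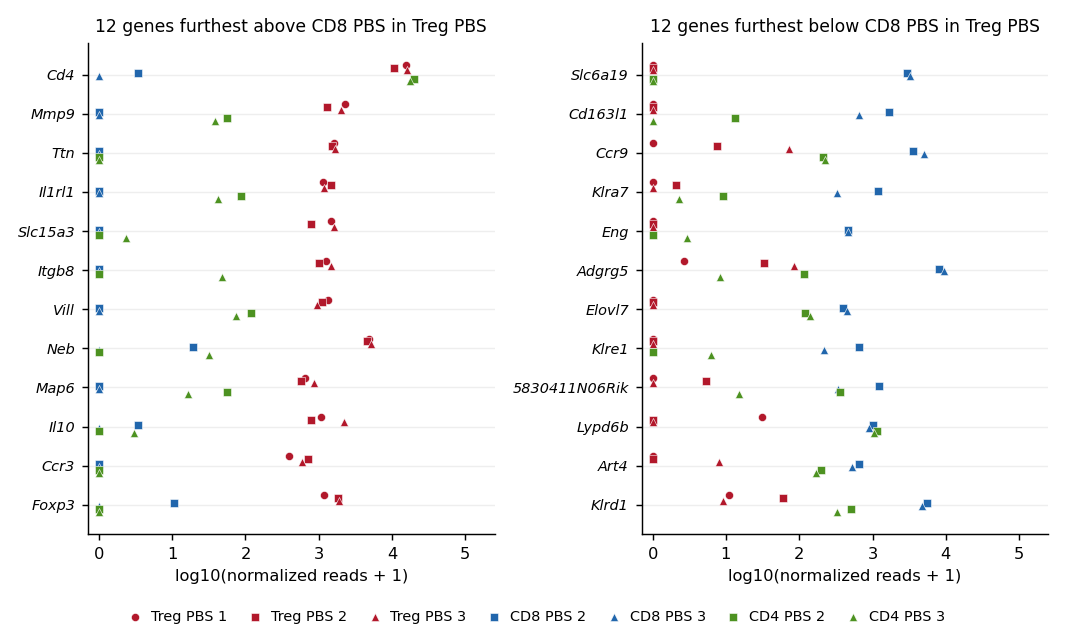
Level in each Treg PBS (n = 3), CD8 PBS (n = 2) and CD4 PBS (n = 2) library of the 12 genes furthest above and the 12 furthest below CD8 PBS in Treg PBS, as log10(normalized reads + 1), 1 point per library. The genes were chosen among those whose Treg PBS and CD8 PBS libraries did not overlap, and for 10 of the Treg-high genes shown both CD8 PBS points are at or under the floor.

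On the CD8 side the leading genes were a transporter, homing and NK-type receptors, and scavenger receptors. Slc6a19, a transporter of neutral amino acids known from gut and kidney, was at 0 in every Treg library and at 2962 and 3199 in CD8 PBS, at least 872-fold higher in CD8 T cells (limma, adjusted p = 1.20e-05). Ccr9, which guides T cells to the small intestine, was at 0, 6.50 and 70.6 against 3578 and 5035 (log2 fold change -9.03, SE 1.21, limma, adjusted p = 3.94e-04). Klrd1, which encodes CD94, the partner chain of NKG2 receptors, was at 10.2, 59.6 and 8.24 against 5575 and 4696 (log2 fold change -8.12, SE 0.73, limma, adjusted p = 3.64e-05). These genes were high in both CD8 PBS libraries alike. Eng, the TGF-beta co-receptor endoglin, was at 0 in all Treg libraries against 463 and 459 (at least 130.5-fold higher in CD8 T cells, limma, adjusted p = 4.95e-04), and the fatty acid elongase Elovl7 was at 0 in all Treg libraries against 397 and 453 (at least 120.4-fold, limma, adjusted p = 4.16e-05). Adgrg5, an adhesion G protein-coupled receptor, was at 1.69, 32.5 and 83.6 against 8073 and 9567 (log2 fold change -8.80, SE 1.28, limma, adjusted p = 6.78e-04). Lypd6b was at 29.6, 0 and 0 against 1014 and 882 and Art4, an ADP-ribosyltransferase gene, at 0, 0 and 7.06 against 658 and 523, with log2 fold changes of -8.24 (limma, adjusted p = 0.00109) and -8.19 (limma, adjusted p = 3.27e-04). Lypd6b was at 1167 and 1036 in CD4 PBS, as high as in CD8 PBS.

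The remaining leading genes were uneven between the CD8 PBS libraries. Cd163l1 and 5830411N06Rik, scavenger receptor genes that were on the list of gamma delta T cell markers, were at 1694 and 646 and at 1208 and 341 in CD8 PBS replicates 2 and 3. Cd163l1 was at 0 in all Treg libraries (limma, adjusted p = 1.77e-04), and 5830411N06Rik was at 0, 4.33 and 0 (limma, adjusted p = 0.00685) and was not called without CD8 PBS replicate 2. Klra7 and Klre1, receptors of the killer lectin-like family, were at 1176 and 327 and at 654 and 219.9 in CD8 PBS, while Klra7 was at 0, 1.08 and 0 in Treg PBS and Klre1 at 0 in all Treg libraries. Each was higher in replicate 2, and these genes too were chosen among those whose groups did not overlap.

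Promoter sequences of called genes were taken from RefSeq (GRCm38.p6, the 250 bases before an annotated start) and searched on both strands for short motifs. Such a sequence was held for 9390 of the 12667 tested genes, for 598 of the 831 higher in Treg cells and for 263 of the 361 lower. The motif TGANTCA, bound by AP-1 factors such as Batf and Jun, was in a window of 7.69% of Treg-high genes, 6.08% of CD8-high genes and 5.34% of all tested genes with a window. The motif TGTGGTT, bound by RUNX factors, was in 5.85%, 7.98% and 4.23%. In all 32851 windows of the reference table AP-1 was found in 6.75% and RUNX in 4.40%. Shares for TGTTTAC (forkhead) were 3.34%, 3.80% and 2.68%, for AGGTGTGA (T-box) 1.34%, 1.14% and 0.927%, for TATAAA (bound by TBP) 8.36%, 10.3% and 8.02%, and for TGACGTCA (CRE) 1.34%, 0.761% and 3.04%. In all windows of the table these were in 3.17%, 1.12%, 12.4% and 1.55%. A match is only a run of letters and not a measured binding site. The windows below are shown because they hold the AP-1 motif before genes of surface receptors higher in Treg cells (Tnfrsf8, Ccr4 and Tnfrsf9) or the RUNX motif before killing genes lower in Treg cells (Klre1, Klrk1, Ncr1 and Gzma), with the motif in capitals. They were read 5′ to 3′ on the strand of the gene, and for Tnfrsf9, Klre1 and Ncr1, each with 2 annotated starts, 1 is shown.
Tnfrsf8 (chr4:145315165-145315414, minus strand): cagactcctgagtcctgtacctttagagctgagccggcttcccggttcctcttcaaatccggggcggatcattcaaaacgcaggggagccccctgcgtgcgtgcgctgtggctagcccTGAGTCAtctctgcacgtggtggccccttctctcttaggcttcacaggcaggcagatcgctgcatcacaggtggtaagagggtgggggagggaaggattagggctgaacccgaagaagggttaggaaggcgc
Ccr4 (chr9:114496545-114496794, minus strand): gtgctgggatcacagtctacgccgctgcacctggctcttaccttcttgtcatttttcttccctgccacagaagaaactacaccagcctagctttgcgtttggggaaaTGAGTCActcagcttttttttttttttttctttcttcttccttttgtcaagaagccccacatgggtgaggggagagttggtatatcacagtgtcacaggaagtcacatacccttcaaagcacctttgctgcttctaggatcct
Tnfrsf9 (chr4:150927749-150927998, plus strand): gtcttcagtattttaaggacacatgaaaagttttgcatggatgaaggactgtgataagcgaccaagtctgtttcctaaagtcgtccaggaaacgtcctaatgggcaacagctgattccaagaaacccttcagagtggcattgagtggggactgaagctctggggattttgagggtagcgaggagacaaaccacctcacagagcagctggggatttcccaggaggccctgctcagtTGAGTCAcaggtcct
Klre1 (chr6:129577963-129578212, plus strand): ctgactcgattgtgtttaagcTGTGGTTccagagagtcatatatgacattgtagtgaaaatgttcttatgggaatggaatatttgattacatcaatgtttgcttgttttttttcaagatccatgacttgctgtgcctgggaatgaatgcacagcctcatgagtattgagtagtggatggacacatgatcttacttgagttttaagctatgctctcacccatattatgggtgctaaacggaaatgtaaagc
Klrk1 (chr6:129623865-129624114, minus strand): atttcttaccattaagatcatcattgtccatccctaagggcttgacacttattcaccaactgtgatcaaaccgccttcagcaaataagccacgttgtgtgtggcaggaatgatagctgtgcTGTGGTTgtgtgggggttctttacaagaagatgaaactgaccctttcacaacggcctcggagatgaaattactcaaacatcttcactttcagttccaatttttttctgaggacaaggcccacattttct
Ncr1 (chr7:4337465-4337714, plus strand): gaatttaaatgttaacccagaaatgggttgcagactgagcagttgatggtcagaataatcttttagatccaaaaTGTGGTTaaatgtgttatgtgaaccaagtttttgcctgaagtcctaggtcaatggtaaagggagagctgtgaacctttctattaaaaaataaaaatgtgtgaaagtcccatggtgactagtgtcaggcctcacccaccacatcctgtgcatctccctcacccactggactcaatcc
Gzma (chr13:113100982-113101231, minus strand): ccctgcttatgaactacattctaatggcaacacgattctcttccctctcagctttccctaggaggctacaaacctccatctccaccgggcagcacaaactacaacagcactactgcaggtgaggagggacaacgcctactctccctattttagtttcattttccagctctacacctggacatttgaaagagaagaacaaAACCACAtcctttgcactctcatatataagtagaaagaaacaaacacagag
The AP-1 motif began 132, 143 and 15 bases before the annotated start of Tnfrsf8, Ccr4 and Tnfrsf9, and the RUNX motif 229, 129, 176 and 51 bases before that of Klre1, Klrk1, Ncr1 and Gzma, in the last case as its reverse complement.

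Genes that mark Treg cells were higher in Treg PBS almost throughout. Of 20 such genes 17 were called higher and none lower, with a median log2 fold change of 4.62 against 0.02 for all tested genes. Their summed level was 210164, 200059 and 206462 in Treg PBS and 14663 and 13032 in CD8 PBS. Among the transcription factors, Ikzf2 (Helios) was at 7511, 11018 and 9964 against 600.2 and 289 (log2 fold change 4.49, SE 0.43, limma, adjusted p = 4.56e-05), and Ikzf4 (Eos), a partner of Foxp3, at 4688, 3786 and 5395 against 146 and 149 (log2 fold change 4.95, SE 0.34, limma, adjusted p = 7.07e-06). At the surface, Il2ra, the CD25 chain of the IL-2 receptor, was at 11401, 19950.0 and 13052 against 533 and 112 (log2 fold change 5.87, SE 0.52, limma, adjusted p = 3.34e-05). Ccr8, a chemokine receptor of tumor Treg cells, was at 13693, 13045 and 12961 against 550.4 and 120.0 (log2 fold change 5.68, SE 0.46, limma, adjusted p = 1.93e-05). The Treg libraries agreed closely for Ccr8 and exceeded the higher CD8 library many-fold. Lrrc32 (GARP), which tethers latent TGF-beta to the cell surface, was at 1822, 3254 and 3134 against 32.8 and 1.33 (log2 fold change 8.22, SE 1.44, limma, adjusted p = 0.00219). Nrp1 and Swap70 were also higher, with log2 fold changes of 3.60 and 4.58. Gpr83 at 173, 1352 and 1117 against 276 and 97.3, Gpr15 at 716, 684 and 418 against 327 and 66.6 and Sytl2 at 3928, 3314 and 4236 against 1429 and 994 were not called. Of the list 16 were called higher without CD8 PBS replicate 3. Without replicate 2 there were 17, with Gpr15 gained and Rgs1, a regulator of G protein signals at 7086, 9197 and 28486 against 1445 and 5656, lost, and Rgs1 kept its call in 12 of 23 settings.

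Genes through which Treg cells act on other cells were also mostly higher. Of 17 suppressive mediators 12 were called higher and none lower (median log2 fold change 3.13), and 8 were called higher without CD8 PBS replicate 3. Ebi3, a subunit of IL-35 and IL-27, was at 2449, 2283 and 2613 against 24.3 and 8.0 (log2 fold change 7.34, SE 0.67, limma, adjusted p = 3.95e-05). Il1r2, a decoy receptor that captures IL-1, was at 11407, 11852 and 10979.8 against 194 and 145 (log2 fold change 6.08, SE 0.39, limma, adjusted p = 4.24e-06). Both separated the groups by a wide margin in every library. Entpd1 (CD39) and Nt5e (CD73), which convert extracellular ATP to adenosine, had log2 fold changes of 3.96 (limma, adjusted p = 1.18e-04) and 2.03 (limma, adjusted p = 8.52e-04). Nt5e lay just above the 4-fold threshold, at 9489, 4881 and 7132 against 2074 and 1378, and was not called without Treg PBS replicate 1, without CD8 PBS replicate 3, with the replicate block, with mouse sex as a term, with equal column totals or with limma treat at 2-fold. Areg, a growth factor of tissue repair, was at 301, 221 and 460.3 against 0 in both CD8 libraries, at least 81.8-fold higher (limma, adjusted p = 7.98e-04). Fgl2 and Lgals1, secreted suppressors of T cell responses, had log2 fold changes of 4.27 and 3.03. Tgfb1 itself was at 1220.2, 2158 and 2219 against 1616 and 1485, with overlapping groups (limma, adjusted p = 0.775). Lag3 was at 321, 170.1 and 211 against 114 and 22.7 and was not called (limma, adjusted p = 0.127).

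In the TNF receptor family 6 of 20 tested genes were called higher in Treg cells and 1 lower. Of all tested genes 6.56% were higher and 2.85% lower. Adaptor genes of these receptors, Traf1, Traf2 and Traf3, are counted among the 20, and none was called. Cd40 was among the higher genes, but kept its call in 15 of 23 settings and lost it when either CD8 PBS library was left out. Tnfrsf4 (OX40) was at 73550.2, 61302 and 45931 against 1139.6 and 275 (log2 fold change 6.72, SE 0.57, limma, adjusted p = 2.52e-05). Tnfrsf9 (4-1BB) was at 51911, 46807 and 60509 against 3566 and 1504 (log2 fold change 4.51, SE 0.42, limma, adjusted p = 4.19e-05), and Tnfrsf18 (GITR) at 46220.0, 31696 and 26620.3 against 3316 and 2310.0 (log2 fold change 3.61, SE 0.35, limma, adjusted p = 4.91e-05). For all of them the lowest Treg library was several times the highest CD8 library. Tnfrsf8 (CD30) was at 235, 699.8 and 486 against 9.72 and 0 (log2 fold change 7.04, SE 1.0, limma, adjusted p = 5.72e-04) and Tnfrsf1b (TNFR2) at 27891, 21354 and 33485 against 6397 and 4281 (log2 fold change 2.37, SE 0.32, limma, adjusted p = 4.03e-04). The death receptor Fas, at 1541, 1331 and 1282 against 839.5 and 854, and the co-stimulatory receptor Cd27, at 12246, 7775 and 9069 against 6849 and 6933, were not called. Tnfrsf26, a decoy receptor, was the member called lower, at 188, 239 and 423 against 1308 and 1542 (log2 fold change -2.41, SE 0.31, limma, adjusted p = 2.82e-04).

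Inhibitory and co-stimulatory receptors and ligands of the B7-CD28 and related families gave 11 higher and 3 lower of 28 tested. The ligand genes Cd80, Pdcd1lg2 and Cd200 were among the higher ones, and Cd80 was not called without CD8 PBS replicate 3. Of all tested genes 6.56% were higher and 2.85% lower. Ctla4, the inhibitory receptor for CD80 and CD86, was at 34182, 39765 and 41133 against 1052 and 694 (log2 fold change 5.48, SE 0.39, limma, adjusted p = 7.13e-06). Icos, a co-stimulatory relative, was at 31768, 36409 and 37525 against 2410.4 and 1539.6 (log2 fold change 4.19, SE 0.40, limma, adjusted p = 4.43e-05). The inhibitory receptors Tigit and Pdcd1 (PD-1) were higher as well, Tigit at 15877, 12497 and 11604 against 554 and 183 (log2 fold change 5.37, SE 0.59, limma, adjusted p = 1.08e-04) and Pdcd1 at 30243, 16352 and 21598 against 3555 and 1389 (log2 fold change 3.31, SE 0.49, limma, adjusted p = 7.33e-04). Havcr2 (TIM-3) was at 4019, 3541 and 5262 against 767 and 187 (log2 fold change 3.47, SE 0.46, limma, adjusted p = 3.84e-04). In CD8 PBS each of these receptors was lower in replicate 3 than in replicate 2. Btla overlapped between the groups, at 781, 2728 and 2376 against 1983 and 1356, and Cd28 at 10202, 13382 and 13426 against 4744 and 3907 stayed under the 4-fold threshold (log2 fold change 1.51, limma, adjusted p = 0.00222). The receptors lower in Treg cells were Cd160, a receptor of cytotoxic lymphocytes, at 27.9, 105 and 73 against 1886 and 1610.2 (log2 fold change -4.84, SE 0.50, limma, adjusted p = 7.43e-05), Cd7, with a log2 fold change of -2.86, and Slamf7, with -2.20. Slamf7 was not called without CD8 PBS replicate 2 or without Treg PBS replicate 3.

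Of 24 chemokine and related receptors 9 were called higher in Treg cells, 3 lower (Ccr7, Ccr9 and S1pr5) and 12 were not called. The shares of all tested genes were 6.56% higher and 2.85% lower. With Treg PBS replicate 3 left out 5 were lower. Besides Ccr8 and Ccr3, Ccr4 was at 1985, 1818 and 1801 against 117 and 32 (log2 fold change 4.91, SE 0.64, limma, adjusted p = 3.38e-04) and Ccr2, a receptor for monocyte chemoattractants, at 12555, 14264 and 21903 against 2348 and 559.8 (log2 fold change 3.78, SE 0.49, limma, adjusted p = 3.06e-04). Ccr1 was at 827, 1186 and 1268 against 81.4 and 24 (log2 fold change 4.57, SE 0.45, limma, adjusted p = 5.13e-05). None of these overlapped between the groups, which also held for 58.0% of all tested genes. Cxcr3, a receptor for interferon-induced chemokines, had a log2 fold change of 2.45 (limma, adjusted p = 0.00404) and was not called without CD8 PBS replicate 3. Ccr7, which guides cells to lymph nodes, was at 1655, 7979.6 and 5051 against 19947 and 28669 (log2 fold change -2.56, SE 0.67, limma, adjusted p = 0.0203), and S1pr5, a receptor for egress into blood, was at 0 in all Treg libraries against 173 and 8.0 (limma, adjusted p = 0.00371), with CD8 PBS replicate 3 close to the floor. Ccr7 was not called without Treg PBS replicate 1 or without either CD8 PBS library. Cxcr6, a receptor of tissue-resident T cells, overlapped at 21627, 10504 and 18926 against 18431 and 11594.

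Of 27 chemokine and cytokine genes 4 were higher in Treg cells and none lower, namely Il10, Areg, Penk and Csf1. Of all tested genes 6.56% were higher and 2.85% lower. Penk, the precursor of enkephalin peptides, was at 8000.0, 6999 and 9324 against 296 and 341 (log2 fold change 4.66, SE 0.70, limma, adjusted p = 8.19e-04). Csf1, the macrophage growth factor, was at 1431, 838 and 2094 against 219.9 and 94.6 (log2 fold change 3.23, SE 0.66, limma, adjusted p = 0.00561) and, like Il10, was not called without CD8 PBS replicate 3. The effector cytokines Ifng, at 568, 291 and 977 against 758 and 681, and Tnf, at 337, 458 and 737 against 196 and 499.9, overlapped between the groups. So did the chemokine genes Ccl3, Ccl4 and Ccl5, with log2 fold changes of 1.05, 0.96 and 0.67 that were not called. Il2 had few reads in both groups, at 12.7, 11.9 and 2.35 against 36.4 and 8.0, and was not called. Among 34 genes of cytokine receptors, with the IL-1 receptor antagonist gene Il1rn counted in, 6 were higher and 3 lower, beside the same shares. The higher genes were Il1rl1, Il1r2, Il1rn, Il2ra, Il9r and Il12rb1. Both counts moved when either CD8 PBS library was left out, which leaves 1 library in that group. Il1rn kept its call in 17 of 23 settings, Il9r in 15 and Il12rb1 in 21, and none of them was called without CD8 PBS replicate 3. Il17ra, the shared receptor chain for IL-17 cytokines, was lower in Treg cells at 1174, 1540.5 and 2639 against 8282 and 8844 (log2 fold change -2.35, SE 0.45, limma, adjusted p = 0.00381). The IL-2 receptor chains that CD25 joins were not called, Il2rb at 34484, 28185 and 35634 against 23630.4 and 13488 and Il2rg at 45954, 37381 and 36116 against 23860.0 and 23513.

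Of 21 granzyme and killing genes 2 were called higher in Treg cells, 3 lower and 16 were not called, where 6.56% of all tested genes were higher and 2.85% lower. Gzmb (granzyme B), a protease that triggers apoptosis in target cells, was higher in Treg cells, at 21686, 19203 and 16534 against 4779.5 and 1072 (log2 fold change 3.07, SE 0.60, limma, adjusted p = 0.00425), and lost its call without CD8 PBS replicate 3. Gzma (granzyme A) was lower, at 32.2, 28.2 and 34.1 against 2985 and 192 (log2 fold change -4.55, SE 0.88, limma, adjusted p = 0.00385). Gzmk was at 33, 9.75 and 24.7 against 720.5 and 369 (log2 fold change -4.61, SE 0.54, limma, adjusted p = 1.53e-04) and Gzmm at 0, 7.58 and 0 against 412 and 349 (log2 fold change -7.54, SE 0.93, limma, adjusted p = 2.27e-04). In each of the 3 lower granzymes both CD8 libraries exceeded all Treg libraries, although Gzma differed more than 10-fold between the CD8 libraries. Of all tested genes 58.0% did not overlap between the groups. Prf1 (perforin), which forms the pore that granzymes pass through, was at 1361, 947 and 1370.3 against 5663 and 3488 and stayed just under the 4-fold threshold (log2 fold change -1.88, SE 0.33, limma, adjusted p = 0.00217), which it passed without CD8 PBS replicate 3. Srgn, the proteoglycan that stores granzymes, was higher in Treg cells at 52751, 30759 and 26207 against 8098 and 8518 (log2 fold change 2.07, SE 0.33, limma, adjusted p = 0.00132), and was not called without Treg PBS replicate 1, with the replicate block, with mouse sex as a term, with equal column totals, with quantile normalization or with limma treat at 2-fold. Nkg7, a granule membrane protein, overlapped at 39068, 17413 and 11160.0 against 29293 and 26686. Near-identical granzyme copies (Gzmd, Gzme, Gzmf and Gzmg) were under the floor in all Treg libraries and not called, and are uncertain, since shared reads are dropped when only unique alignments are counted.

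Killer lectin-like receptors, which sense MHC class I and stress ligands on target cells, were mostly lower in Treg cells. Of 20 tested 12 were lower and 1 was higher, with a median log2 fold change of -5.60, where 2.85% of all tested genes were lower. The inhibitory and activating NKG2 genes were low in Treg cells, Klrc1 at 81.3, 149 and 332 against 3266 and 818 (log2 fold change -3.35, SE 0.78, limma, adjusted p = 0.0109) and Klrk1 (NKG2D) at 0.847, 93.2 and 75.3 against 4289 and 1205 (log2 fold change -6.59, SE 1.31, limma, adjusted p = 0.00466). Klra6, of the Ly49 group, was at 0 in every Treg library against 279 and 127 (limma, adjusted p = 3.33e-04). Klrb1c (NK1.1) was at 16.9, 13 and 4.71 against 2113 and 217 (log2 fold change -5.91, SE 1.30, limma, adjusted p = 0.00798). All 20 genes of the list were higher in CD8 PBS replicate 2 than in replicate 3, 12 of them more than 4-fold. Without CD8 PBS replicate 2, the members called lower came to 6, and Klrk1, Klrc1 and Klrb1c were not among them, while without replicate 3 they came to 10. The list's exception was Klrg1, an inhibitory receptor of differentiated T cells that binds cadherins, at 12492, 7400.0 and 9048 in Treg cells against 412 and 69.3 (log2 fold change 5.79, SE 0.61, limma, adjusted p = 8.45e-05). Genes of the Klra group are near-identical copies and their separate values are uncertain.

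**Figure D3:**
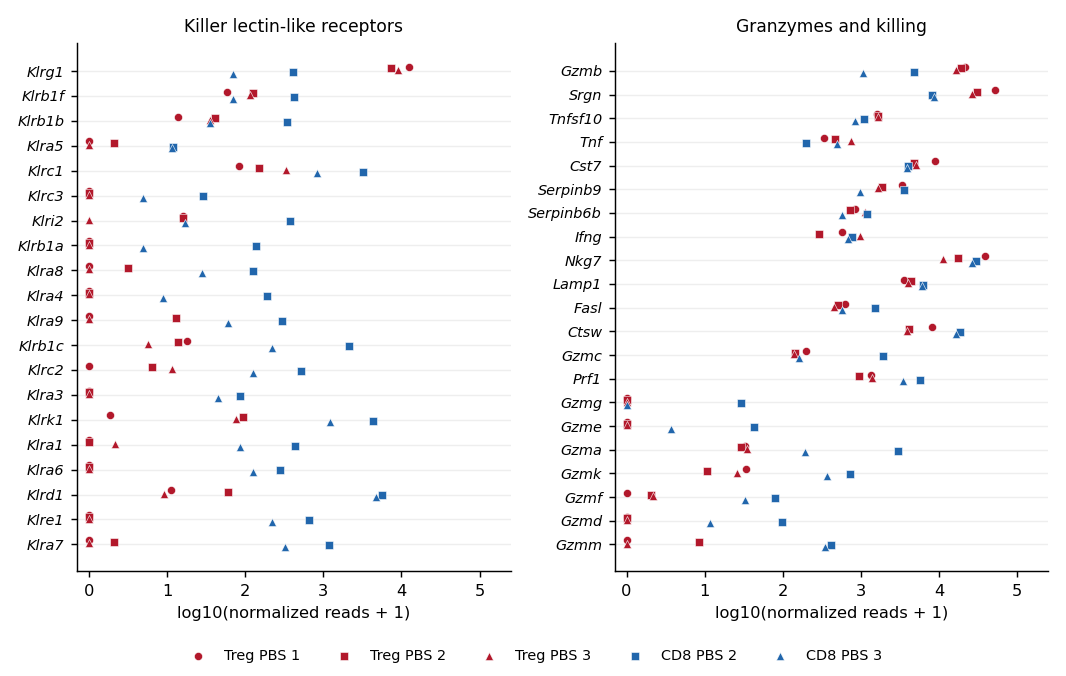
Level of the killer lectin-like receptor genes and of the granzyme and killing genes in each Treg PBS (n = 3) and CD8 PBS (n = 2) library, as log10(normalized reads + 1), 1 point per library. Klrg1 and Gzmb stand higher in Treg PBS, and most other receptor genes stand higher in CD8 PBS, with replicate 2 above replicate 3.

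Transcription factors were called in both directions, 12 higher and 8 lower of 69, beside 6.56% and 2.85% of all tested genes. Maf, an inducer of Il10, was at 4740.0, 3576 and 4296 against 183 and 65.3 (log2 fold change 5.24, SE 0.38, limma, adjusted p = 9.03e-06). Prdm1 (Blimp-1), a factor of effector differentiation, was at 5429, 7989 and 8225 against 719 and 119 (log2 fold change 4.59, SE 0.52, limma, adjusted p = 1.33e-04), and Rora at 4919.6, 7611 and 10774 against 818 and 425 (log2 fold change 3.65, SE 0.38, limma, adjusted p = 7.43e-05). Every Treg library exceeded both CD8 libraries for these factors, where 58.0% of all tested genes did not overlap between the groups. Pparg, known from Treg cells of adipose tissue, was at 628, 289 and 340.2 against 10.9 and 0 (log2 fold change 6.84, SE 1.08, limma, adjusted p = 0.00118), and Hif1a, the oxygen-sensing factor, at 32783, 27861 and 37700.2 against 5544 and 4477 (log2 fold change 2.71, SE 0.23, limma, adjusted p = 2.86e-05). Zbtb7b (ThPOK), which sets the CD4 fate in the thymus, was at 412, 349.9 and 903 against 15.8 and 0 (log2 fold change 6.95, SE 0.94, limma, adjusted p = 4.07e-04), and its counterpart of the CD8 fate, Runx3, was at 1799, 1773 and 2542 against 2800.4 and 2939 and was not called (limma, adjusted p = 0.182). Eomes, a T-box factor of memory CD8 T cells, was lower at 0, 14.1 and 96.5 against 1804 and 1678 (log2 fold change -7.26, SE 1.36, limma, adjusted p = 0.00328), whereas Tbx21 (T-bet) overlapped at 2531, 966 and 1765 against 1979 and 1008. Batf, Irf4 and Irf8 had log2 fold changes of 1.77, 1.90 and 1.95, all under the 4-fold threshold.

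Genes of naive and stem-like T cells were lower in Treg cells, 12 of 20, with 1 higher (median log2 fold change -2.46). Tcf7 (TCF-1), which maintains naive and stem-like T cells, was at 395, 3020.2 and 3807 against 31709 and 38787 (log2 fold change -4.40, SE 0.70, limma, adjusted p = 0.00122), and its relative Lef1 at 1497, 2640.0 and 2399 against 9648 and 12123 (log2 fold change -2.35, SE 0.29, limma, adjusted p = 2.20e-04). Treg PBS replicate 1 was the lowest library for both. Satb1, a chromatin organizer, was at 1141, 2906 and 4146 against 17902 and 24129 (log2 fold change -3.12, SE 0.44, limma, adjusted p = 5.08e-04), and Bach2, which holds back effector genes, at 55.9, 144 and 328 against 1585 and 2175 (log2 fold change -3.73, SE 0.64, limma, adjusted p = 0.00204). Dapl1 was at 3.39, 29.2 and 11.8 against 2500.3 and 3436 (log2 fold change -7.94, SE 1.07, limma, adjusted p = 4.03e-04). All of these were high in both CD8 PBS libraries, and Tcf7 was at 51745 and 67509 in CD4 PBS. The Ly6c pair moved apart, with Ly6c2 at 306, 282 and 57.7 against 21307 and 24135 (log2 fold change -7.04, SE 0.67, limma, adjusted p = 4.43e-05) and Ly6c1 at 572, 1553 and 1357 against 64.4 and 24 (log2 fold change 4.72, SE 0.56, limma, adjusted p = 1.66e-04), although these near-identical copies are uncertain. Il7r, which carries survival signals in resting T cells, was at 4869.6, 7465 and 6383 against 16930.1 and 11987 and stayed under the 4-fold threshold (log2 fold change -1.21).

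Genes of the dividing cell were higher in Treg cells, 25 of 40 with none lower (median log2 fold change 2.68). Mki67, the antigen of cycling cells, was at 3253, 8115 and 3685 against 842 and 228 (log2 fold change 3.39, SE 0.57, limma, adjusted p = 0.00177). Ccnb1, which drives entry into mitosis, was at 2625, 5396 and 1496 against 528 and 156 (log2 fold change 3.26, SE 0.62, limma, adjusted p = 0.00342), and Aurkb, a mitotic kinase, at 1564, 3008 and 1116 against 259 and 112 (log2 fold change 3.34, SE 0.59, limma, adjusted p = 0.00237). Treg PBS replicate 2 was the highest library for all 3 genes. No Treg library overlapped CD8 PBS, which also held for 58.0% of all tested genes. The replication helicase genes Mcm2 to Mcm7 were not called, with log2 fold changes between 0.29 (Mcm2) and 1.11 (Mcm6), and neither was Pcna, at 5079, 6374 and 4429.8 against 2768 and 3171. Of the 40 genes 38 were higher in CD8 PBS replicate 2 than in replicate 3. Without CD8 PBS replicate 3 only 5 members were called, among them Mki67, while without replicate 2 there were 23.

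**Figure D4:**
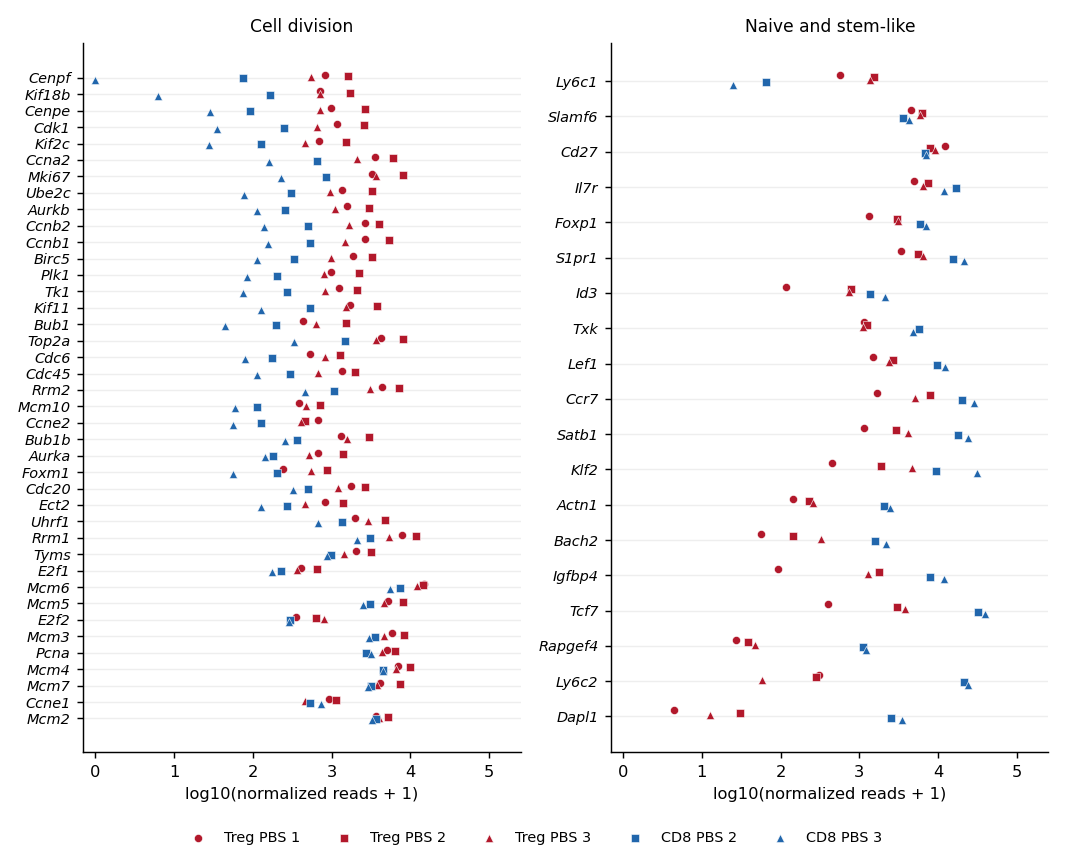
Level of the cell division genes and of 19 of the 20 naive and stem-like genes in each Treg PBS (n = 3) and CD8 PBS (n = 2) library, as log10(normalized reads + 1), 1 point per library. Division genes stand higher in Treg PBS, most of them highest in replicate 2, and most naive genes stand higher in CD8 PBS, with Ly6c1 as an exception.

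Of 18 genes of the TGF-beta pathway 3 were higher and 1 was lower in Treg cells, beside 6.56% and 2.85% of all tested genes. Lrrc32 and Itgb8 were higher in Treg cells as given above, and Itgav, the alpha v chain, was at 2299, 2863 and 4111 against 832 and 535 (log2 fold change 2.17, SE 0.59, limma, adjusted p = 0.0241). Tgfbr3, a co-receptor, was lower at 0, 97.5 and 129 against 1072 and 1410.3 (log2 fold change -5.71, SE 1.61, limma, adjusted p = 0.0274). The signaling receptors Tgfbr1, at 1083, 1791 and 1769 against 1106 and 1008, and Tgfbr2, at 2692, 3901 and 6532 against 12347 and 13747, were not called, and neither were the other 12 members. Without either CD8 PBS library Itgav and Tgfbr3 were not called, and without Treg PBS replicate 3 the members called lower came to 3. Of 27 integrin and adhesion genes 6 were higher and 2 lower, beside the same shares of all tested genes. Fewer were called in each direction without CD8 PBS replicate 3, which leaves 1 CD8 library. The tetraspanin Cd81 was higher at 10477, 8695 and 11533 against 269.7 and 128 (log2 fold change 5.77, SE 0.54, limma, adjusted p = 4.16e-05) and Itga3 had a log2 fold change of 3.80. Itgae (CD103), an integrin of tissue-resident T cells, overlapped at 8505, 8186 and 12594 against 8515 and 6974, and was at 791 and 130.1 in CD4 PBS.

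Of 16 genes of the IL-2 and STAT5 response 3 were higher in Treg cells and 2 were lower, beside 6.56% and 2.85% of all tested genes. Cish and Socs2, which STAT5 induces and which damp cytokine signals, were at 8686, 7662 and 10933 against 889 and 606 (log2 fold change 3.61, SE 0.26, limma, adjusted p = 7.13e-06) and at 1663, 1531 and 1178 against 81.4 and 16 (log2 fold change 5.27, SE 0.56, limma, adjusted p = 8.82e-05). Bcl2, which blocks apoptosis, was at 230.3, 905 and 1138 against 4646 and 4068 (log2 fold change -2.81, SE 0.52, limma, adjusted p = 0.00318), and the kinase gene Pim2 at 657, 783 and 1249 against 7164 and 10044 (log2 fold change -3.30, SE 0.31, limma, adjusted p = 4.37e-05). Neither gene overlapped between the groups, which also held for 58.0% of all tested genes. The relative Bcl2l1 went the other way without passing 4-fold, at 2174, 2561 and 2883 against 955 and 579.8 (log2 fold change 1.76, limma, adjusted p = 0.00318). Stat5a and Stat5b overlapped.

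Glycolysis genes were higher in Treg cells by amounts mostly under 4-fold. Of 25 genes of glycolysis and hypoxia 4 were called higher and 1 lower (median log2 fold change 1.40), beside 6.56% and 2.85% of all tested genes. Where the fold threshold was dropped 18 were higher, beside 1512 of all 12667 tested genes. Tpi1, a glycolytic enzyme, was at 25681, 29948 and 24156 against 4670.2 and 2575 (log2 fold change 2.93, SE 0.36, limma, adjusted p = 2.31e-04). Slc16a3, the lactate exporter MCT4, was at 2172, 2145 and 2673 against 329 and 70.6 (log2 fold change 3.91, SE 0.53, limma, adjusted p = 4.18e-04), and Bnip3, a hypoxia-induced mitophagy gene, at 2745, 4538 and 4838 against 492 and 343 (log2 fold change 3.25, SE 0.31, limma, adjusted p = 4.37e-05). Gapdh, Pkm and Ldha had log2 fold changes of 1.99, 1.92 and 1.40 with adjusted p-values (limma) of 0.00137, 2.37e-04 and 0.00220. No Treg library of these enzymes overlapped CD8 PBS, which also held for 58.0% of all tested genes. Pdk1, a kinase that inhibits pyruvate dehydrogenase, was the gene called lower, at 2004, 2399.5 and 3089 against 10210.3 and 11245 (log2 fold change -2.12, SE 0.38, limma, adjusted p = 0.00242). It was not called without Treg PBS replicate 1, with the replicate block or with limma treat at 2-fold.

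Genes of the T cell receptor complex were not called in either direction (0 of 14, median log2 fold change 0.19). Cd3e was at 24284, 22614 and 23181 against 21023 and 20971, and the kinase gene Lck at 50291, 45808 and 46199 against 51977 and 59629.9. At a limma adjusted p under 0.05 alone, without the fold threshold, Lcp2, Cd28, Cd5, Cd6 and Cd2 were higher, with Cd5, which dampens receptor signals, at 14472, 12249 and 15736 against 4428 and 5225 (log2 fold change 1.55, SE 0.19, limma, adjusted p = 2.29e-04). Of 33 interferon-stimulated genes 4 were higher and 1 lower (median log2 fold change 0.25), beside 6.56% and 2.85% of all tested genes. Without Treg PBS replicate 1, 2 were higher. Isg20 was at 8547, 4190.2 and 3268 against 501 and 459 (log2 fold change 3.35, SE 0.42, limma, adjusted p = 2.37e-04) and Iigp1, an interferon-gamma-induced GTPase, at 9592, 4043 and 4867 against 402 and 808 (log2 fold change 3.33, SE 0.41, limma, adjusted p = 2.23e-04). Irf7 overlapped between the groups, at 4589, 2659.5 and 2702 against 3036 and 4006. None of the 23 immediate early genes was called (median log2 fold change -0.77), and 2 were called lower without CD8 PBS replicate 2.

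**Figure D5:**
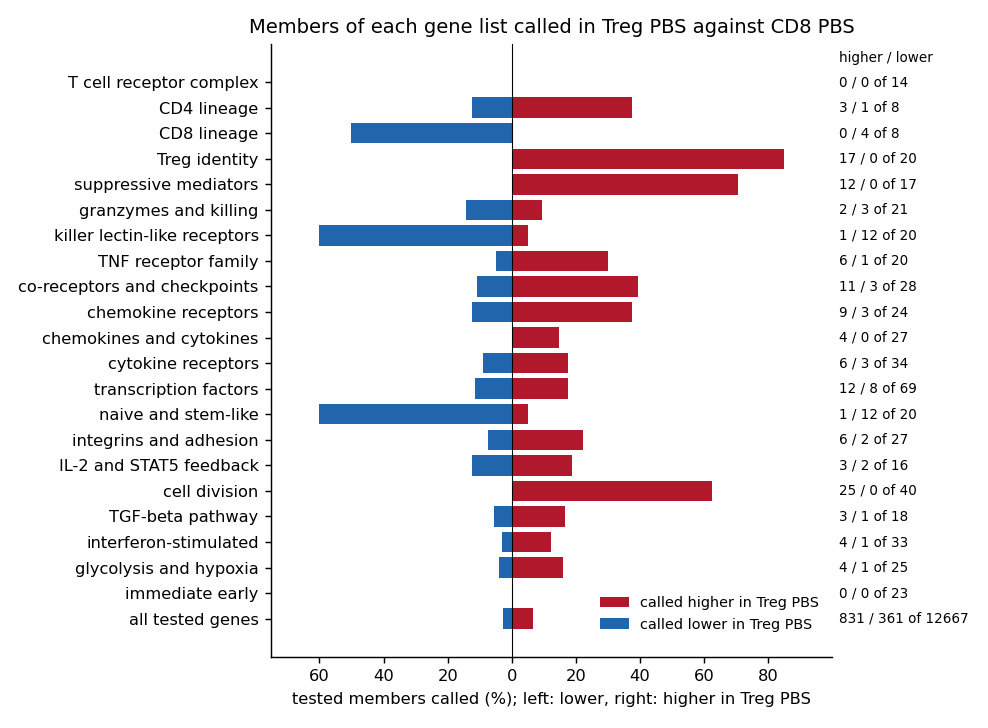
Percentage of the tested members of each gene list that were called higher (right) or lower (left) in Treg PBS against CD8 PBS, with all tested genes for comparison. Treg identity, suppressive mediators and cell division lie far to the right, and killer lectin-like receptors and naive genes far to the left.

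Some of the genes that set Treg cells apart from CD8 T cells did not set them apart from CD4 Tconv cells. Values of both comparisons are set side by side only, because they share the Treg PBS libraries, and Treg PBS against CD4 PBS had 1292 genes called (10.2%). Cd4 was at 19673 and 17779.6 in CD4 PBS, and Zbtb7b at 1004 and 1314, and neither was called against CD4 PBS (log2 fold changes -0.43 and -1.18). Cd40lg, the helper molecule that activates B cells and dendritic cells, was at 285, 378 and 524 in Treg PBS, 82.6 and 81.3 in CD8 PBS and 3529.9 and 5922 in CD4 PBS. It was therefore higher in Treg cells than in CD8 T cells (log2 fold change 2.21, limma, adjusted p = 0.00294) and lower than in CD4 Tconv cells (log2 fold change -3.57, limma, adjusted p = 1.15e-04). Tox2 was at 362, 470.2 and 498 in Treg PBS, 2.43 and 0 in CD8 PBS and 67 and 79.3 in CD4 PBS. Other genes were called higher in Treg cells against each of the other PBS groups. Foxp3 was at 0 in both CD4 libraries, and in CD4 PBS Ctla4 was at 1198 and 566, Il2ra at 223 and 126, Ccr8 at 738 and 445 and Tnfrsf4 at 2106 and 631. Nkg7 and Itgae, which overlapped between Treg and CD8 cells, were at 2273 and 1121 and at 791 and 130.1 in CD4 PBS, with log2 fold changes of 3.62 (limma, adjusted p = 3.63e-04) and 4.89 (limma, adjusted p = 8.44e-04) in Treg against CD4 cells.

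Markers of other cell types were measured because a sort can carry over RNA from the tumor. Melanocyte markers summed to 1365, 1396 and 1894 in Treg PBS and 1288 and 491 in CD8 PBS, and 1 of 7 was called (Mitf, higher, at 55.9, 29.2 and 31.8 against 0 in both CD8 libraries), a call lost when any 1 of the 5 libraries was left out and with the replicate block. Macrophage and monocyte markers summed to 40508, 34415 and 28732 against 11959.8 and 6262, and 2 of 19 were called higher, Cd74 and Cybb, the latter not without CD8 PBS replicate 3. In Treg PBS most of that sum was Cd74, at 22176, 23197 and 19226 against 2822 and 832 (log2 fold change 3.81, SE 0.56, limma, adjusted p = 7.45e-04). The other 17 tested markers were not called, and the median log2 fold change of the list was 0.67. Among the 17 were Csf1r, at 199.8, 37.9 and 22.4 against 82.6 and 0, and Adgre1, at 166, 61.7 and 0 against 20.7 and 0. Dendritic cell markers summed to 3944, 7472 and 3812 against 2624 and 593, with Itgax (CD11c) called lower, at 0, 19.5 and 0 against 502 and 109. Clec9a was at 0 in all 5 libraries. Without CD8 PBS replicate 2, 4 of the 10 dendritic markers were called higher. Of 8 NK cell markers 3 were lower in Treg cells (Eomes, Ncr1 and Klrb1c), and 1 without CD8 PBS replicate 2. Of 5 gamma delta T cell markers 2 were lower, and 1 without CD8 PBS replicate 2 (Cd163l1). B cell, erythroid, granulocyte and stromal markers gave no calls (0 of 9, 5, 7 and 5), and neither did 5 sex-linked genes. The part of RNA from other cells in the results was not tested.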

How the data were processed

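T cells were sorted from tumors, and their RNA was sequenced in 13 libraries; the 5 libraries of Treg PBS and CD8 PBS were compared here. Per the labels and methods, libraries were made by SmartSeq2 (the methods name a SMARTer Ultra Low kit) and sequenced on a HiSeq instrument, reads were trimmed with cutadapt, aligned with hisat2 to NCBIM37 (mm9), and uniquely mapped reads were kept. The counter and whether it used strand are not given in the sources used here, so overlapping and antisense genes cannot be told apart. The authors deposited a signal value per gene and library, described as FPM with an intergenic correction. In the deposited table these values were whole read counts divided by 1 size factor per library: 100% of values gave whole reads within 0.01. They are called normalized reads, and the multiples recovered reads. Columns without a sample numbered 0. Of 12963 genes, 53 were at 0 throughout and 21 had date-like symbols.

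A gene was tested if 2 or more of the 13 libraries reached 10 normalized reads (12667 of 12963) on log2(value + 1) in limma 3.58.1 (R 4.3.3; 1 mean per group, all 13 libraries, trended empirical Bayes), with Benjamini-Hochberg adjustment. The test planned for FPM was kept. Count tests on recovered reads were alternatives: edgeR 4.0.16 called 874 genes and DESeq2 1.42.0 called 1221, against 1192. Ratios against libraries at 0 are bounds from a floor of 3 recovered reads, the largest floor of the group's libraries, and cover counting error only. Named genes were Foxp3, Cd4, Cd8a and Cd8b1, the 12 called genes each way with the largest change whose groups did not overlap, and members of the gene lists. Members and lists were chosen with earlier results of these data known. A fit with mouse sex as a term was chosen after seeing the data. Scripts were tested on simulated data. Some named genes are not reported here.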

Additional observations from a re-analysis of the deposited data

How the results depend on the processing

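Of 175 named genes called, 103 kept their call under all 23 alternative settings, 0 reversed, and 240 of 356 named genes not called were called under none. The 1192 calls (831 higher, 361 lower) became 2367 (1512 and 855) with no fold threshold and 639 (463 and 176) when a change over 2-fold was itself tested (limma treat); these differ by construction. Leaving out 1 library gave 544 to 1154 genes, 367 to 744 higher and 177 to 410 lower. The lowest values were without CD8 PBS replicate 3, and without CD8 PBS replicate 2 the lower genes were 203; the cause was not tested. For Treg PBS against CD4 PBS, 1292 calls became 2581 and 812 with those thresholds and 840 to 1343 when 1 library was left out, lowest without CD4 PBS replicate 3. Calls of edgeR (591 higher, 283 lower) and DESeq2 (847 and 374) shared 864 and 1072 genes with the 1192. With mouse sex as a term, chosen after seeing the data, 1182 genes were called and 1137 were shared. The share of calls higher in Treg cells was 69.7%, and 61.4% with quantile normalization, while equal column totals moved the median log2 fold change of all genes from 0.02 to -0.09.

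Replicate numbers were shared by Treg PBS and CD8 PBS for 2 pairs only (deviations correlated at 0.0642 and 0.125), and the labels do not say what a number marks, so the samples were not treated as pairs, although replicate 3 was male in every group. With the replicate block 1213 genes were called, 886 higher and 327 lower, and Nt5e, Srgn, Pdk1 and Mitf were not. With 2 CD8 libraries, a gene whose CD8 values lie far apart can be missed, and depth limits genes near the floor.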

Other observations

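Gene families named by the start of their symbols, collected after the data were examined, held further differences. Cytosolic ribosomal protein genes, which build the ribosome, had a median log2 fold change of -0.75 over 80 genes, with 3 positive and none called, whereas mitochondrial ribosomal protein genes had a median of 0.06 over 77 genes and respiratory complex I genes 0.21 over 44. Proteasome genes had a median of 0.39, and 38 of 42 were positive. None of these families held a called gene, at a threshold of 4-fold.

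Calcium-binding S100 proteins were higher in 3 of 8 members (S100a4, S100a6 and S100a11), beside 6.56% of all tested genes. S100a4 was at 8644, 6089 and 4955 normalized reads in Treg PBS replicates 1, 2 and 3 and at 1221 and 317 in CD8 PBS replicates 2 and 3 (log2 fold change 3.36, SE 0.54, limma, adjusted p = 0.00125), and S100a6 at 11268, 7968 and 4794 against 2109 and 532 (log2 fold change 2.83, SE 0.61, limma, adjusted p = 0.00733). Anxa2, an annexin that binds membranes and the S100 protein S100a10, was at 34535, 26024 and 23907 against 7359 and 2361 (log2 fold change 2.74, SE 0.47, limma, adjusted p = 0.00210). The lysosomal protease genes Ctsb and Ctsz were the cathepsins called, both higher, with Ctsb at 46693, 31584 and 29776 against 8497 and 7282 (log2 fold change 2.16, SE 0.29, limma, adjusted p = 3.79e-04). The groups did not overlap for these genes, which also held for 58.0% of all tested genes. Of these S100a6, S100a11 and Anxa2 were not called without CD8 PBS replicate 3, and without CD8 PBS replicate 2 Ctsz was not.

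Of motor and centromere genes, some of which are also on the division list, 9 of 30 kinesins and 8 of 19 centromere protein genes were higher, and 1 kinesin was lower, beside 6.56% and 2.85% of all tested genes. Only 1 kinesin (Kif4) and 1 centromere gene (Cenpa) were called without CD8 PBS replicate 3. Of the genes for antigen presentation on MHC class II, Ciita, the master regulator of the class, was higher in Treg cells at 264, 211 and 141 against 30.4 and 0 (log2 fold change 5.16, SE 1.60, limma, adjusted p = 0.0420), as was Cd74. The other 8 members were not called, Ciita was not called without CD8 PBS replicate 3, 5 members were called without CD8 PBS replicate 2, and macrophage markers, which were also higher in sum in Treg PBS, are given above, and their part was not tested. Of 208 solute carrier genes 15 were higher (7.21%) and 8 lower (3.85%), shares close to the 6.56% and 2.85% of all tested genes, and Slc15a3 and Slc6a19 led them in each direction. The solute carrier counts were 5 and 2 without CD8 PBS replicate 3. None of the 9 Gimap genes, GTPases of lymphocyte survival, was called.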
